A study of Mus musculus with 12 samples.

Results

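The response to muscle injury was described in satellite cells (SCs) that lack FoxM1, by setting 3 RNA libraries from injured FoxM1-cKO mice against 3 from uninjured FoxM1-cKO mice, 6 of the 12 libraries in the study. The members were all genes of the deposited expression table, of which 10802 of 13775 were above 0 in at least 1 FoxM1-cKO library and 4956 passed the filter on low values and were tested. FoxM1-cKO mice carry 2 floxed FoxM1 alleles and Cre expressed from the Pax7 gene (FoxM1fl/fl,Pax7Cre/+), so that the gene is recombined in the Pax7 lineage, and no induction step is described. Mice were 2 months old. The injured group received BaCl2 in the tibialis anterior and gastrocnemius muscles and its SCs were taken 48 h later. The uninjured group had no BaCl2, and whether its muscles had received PBS is not stated. The floxed mice without Cre (FoxM1fl/fl), injured and uninjured in the same way with 3 libraries each, entered the filter and the estimate of the spread, and a test of whether a response differed between the genotypes. About 800 sorted cells went into a library, built with a QIAseq FX kit meant for very small amounts of RNA. Since the labels do not link libraries to animals, p-values measure only the spread between these libraries, part of which may be technical.

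SCs are the stem cells of skeletal muscle. They lie quiescent between the myofibre and its basal lamina, and after injury they enlarge, raise protein synthesis, enter the cell cycle and give rise to myoblasts. FoxM1 is a forkhead transcription factor that acts in late cell cycle, where it joins the MuvB complex at genes of the G2 phase and mitosis that carry a CHR element, and the forkhead domain itself can bind a separate core motif.

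The promoters of genes on which the results turn are shown first, from RefSeq (GRCm38.p6), each running from 250 bases before to 50 after the annotated start in the direction of the gene. For the mitotic genes the capitals mark the form TTTGAA of the CHR element, the CCAAT box bound by NF-Y, and the forkhead core TAAACA, on either strand. Cdc20 activates the anaphase-promoting complex (chr4:118437294-118437593, minus strand), Top2a untangles DNA before chromosomes part (chr11:99024140-99024439, minus strand) and Cks1b is a small subunit of cyclin-dependent kinases (chr3:89418242-89418541, minus strand). All 3 were called higher after injury in FoxM1-cKO SCs, and they are set beside Ccnb1, cyclin B1 (chr13:100786437-100786736, minus strand), which was not.
Cdc20: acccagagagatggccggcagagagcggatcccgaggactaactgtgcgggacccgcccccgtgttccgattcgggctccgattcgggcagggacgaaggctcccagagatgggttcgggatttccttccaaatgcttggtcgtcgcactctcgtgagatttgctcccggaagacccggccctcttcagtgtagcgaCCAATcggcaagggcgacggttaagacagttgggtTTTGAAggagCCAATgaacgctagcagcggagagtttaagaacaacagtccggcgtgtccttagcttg
Top2a: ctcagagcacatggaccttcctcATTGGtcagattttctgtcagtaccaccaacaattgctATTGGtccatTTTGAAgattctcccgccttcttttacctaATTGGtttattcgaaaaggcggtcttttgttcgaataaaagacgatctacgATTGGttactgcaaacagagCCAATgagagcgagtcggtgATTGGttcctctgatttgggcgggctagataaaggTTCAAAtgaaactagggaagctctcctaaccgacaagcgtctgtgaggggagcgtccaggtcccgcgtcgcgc
Cks1b: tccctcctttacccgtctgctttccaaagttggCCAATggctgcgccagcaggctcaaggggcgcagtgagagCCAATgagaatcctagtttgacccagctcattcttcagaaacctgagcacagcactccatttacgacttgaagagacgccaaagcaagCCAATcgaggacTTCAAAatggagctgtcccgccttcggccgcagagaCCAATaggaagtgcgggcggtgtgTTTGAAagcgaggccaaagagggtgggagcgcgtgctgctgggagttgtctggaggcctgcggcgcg
Ccnb1: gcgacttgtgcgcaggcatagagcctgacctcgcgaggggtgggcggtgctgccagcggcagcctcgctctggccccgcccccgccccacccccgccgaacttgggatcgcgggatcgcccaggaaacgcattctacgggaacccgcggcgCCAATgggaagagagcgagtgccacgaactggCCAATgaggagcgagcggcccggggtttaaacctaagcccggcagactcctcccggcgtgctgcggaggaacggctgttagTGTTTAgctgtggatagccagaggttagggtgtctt

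Of 7 mitotic genes called, 6 had a promoter in the table used, without Ccna2. Of these 6, 5 held TTTGAA, 5 held CCAAT and 0 held TAAACA. The window of Tacc3 held no match to any of these motifs. Among 32851 promoters of the same length, 17.9% held TTTGAA, 37.4% CCAAT and 13.4% TAAACA. The Ccnb1 window held CCAAT and TAAACA but no TTTGAA. Other forms of the CHR element were not searched, so this does not show that Ccnb1 lacks one. Of the mitotic genes that were not called, Ccnb1 alone was searched, so these counts cannot tell the genes that rose from others of their list. These matches describe the letters of the windows and were not tested for binding.

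The second set comes from the genes that fell furthest. Acta1 encodes skeletal alpha-actin (chr8:123894726-123895025, minus strand), Myl1 an alkali light chain of fast myosin (chr1:66945007-66945306, minus strand) and Pgam2 the muscle form of phosphoglycerate mutase (chr11:5803747-5804046, minus strand). Capitals mark the E-box CAGCTG, to which myogenic bHLH factors bind, and the TATA box TATAAA, on either strand.
Acta1: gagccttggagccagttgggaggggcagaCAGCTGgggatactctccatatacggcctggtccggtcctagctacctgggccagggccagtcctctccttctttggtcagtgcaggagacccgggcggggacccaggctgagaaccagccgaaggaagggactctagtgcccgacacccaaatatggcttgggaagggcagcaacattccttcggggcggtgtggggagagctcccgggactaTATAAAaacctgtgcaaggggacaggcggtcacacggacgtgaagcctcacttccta
Myl1: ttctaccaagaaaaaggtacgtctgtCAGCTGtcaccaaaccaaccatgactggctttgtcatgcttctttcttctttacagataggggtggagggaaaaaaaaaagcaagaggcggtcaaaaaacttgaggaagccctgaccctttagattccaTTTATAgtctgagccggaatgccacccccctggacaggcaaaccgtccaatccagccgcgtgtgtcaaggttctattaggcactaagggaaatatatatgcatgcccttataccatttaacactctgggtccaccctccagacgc
Pgam2: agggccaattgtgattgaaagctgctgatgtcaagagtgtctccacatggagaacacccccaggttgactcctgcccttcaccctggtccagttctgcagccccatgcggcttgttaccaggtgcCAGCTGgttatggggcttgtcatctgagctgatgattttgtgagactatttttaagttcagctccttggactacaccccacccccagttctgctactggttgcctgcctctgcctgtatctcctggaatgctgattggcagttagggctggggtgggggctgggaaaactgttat

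Of 13 myofibre genes called lower, 10 had a promoter in the table, without Actn3, Tnni2 and Tcap. Of these 10, 7 held CAGCTG and 3 held TATAAA, against 16.3% and 13.6% of all promoters. Myofibre genes that did not fall were not searched, so these counts cannot tell the genes that fell from others of their list. In the 7 windows shown, no match overlapped another.

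The 2 groups differed strongly in depth. By the size of the steps in their FPKM, the injured FoxM1-cKO libraries held 2854505, 1693000 and 2062020 reads and the uninjured ones 170700, 172897 and 238174 reads, a ratio of summed depth of 11.4. Genes above 0 numbered 7577, 6853 and 6417 in injured and 1178, 1718 and 1365 in uninjured FoxM1-cKO libraries. For a gene of 1 kb, 3 reads were worth 1.05 to 1.77 FPKM after injury but 12.6 to 17.6 FPKM in uninjured libraries, so a value of 0 there covers a wide range of levels. With every library thinned to the shallowest depth, 4003 to 4708 genes were still above 0 in injured libraries and 1177 to 1716 in uninjured ones.

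**Figure D1:**
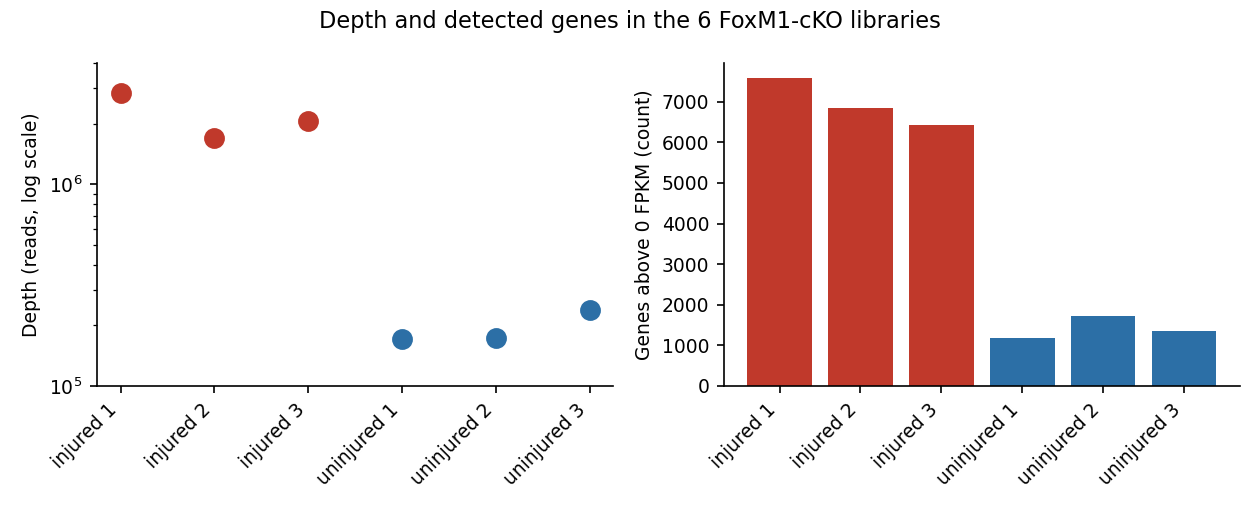
Depth in reads (left, log scale) and number of genes above 0 FPKM (right) in each FoxM1-cKO library. The 3 injured libraries (red) lie above the 3 uninjured ones (blue) in both, with 6417 to 7577 genes after injury against 1178 to 1718.

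A further feature touched every result. The library FoxM1-cKO uninjured 2 followed a weighted sum of the other 2 uninjured FoxM1-cKO libraries. It held 92.9% of 255 genes that were at 20 FPKM or more in uninjured 1 and at 0 in uninjured 3, at a median of 0.439 of their value, and 96.7% of the 306 genes in the opposite case, at a median of 0.526. Injured FoxM1-cKO libraries shared 33.3 to 48.6% of such genes. FoxM1fl/fl injured 1 and FoxM1fl/fl uninjured 1 had the same property, so the spread within 3 of the 4 groups may be understated. Counts for most gene lists are also given without FoxM1-cKO uninjured 2. That fit still holds FoxM1fl/fl injured 1 and FoxM1fl/fl uninjured 1, so it does not remove the limit on the shared spread. Without all 3 such libraries no gene passed.

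Foxm1 stood at 3.48, 1.28 and 0.832 FPKM in injured and at 0 in all 3 uninjured FoxM1-cKO libraries, and the change did not pass the test (adjusted p = 0.239). In FoxM1fl/fl SCs it was at 32.8, 29.4 and 42.0 FPKM after injury and 5.48, 8.95 and 7.38 FPKM without. The 3 injured FoxM1-cKO values lie below all 3 injured FoxM1fl/fl values. At the longest annotated transcript, 2 of the 3 injured FoxM1-cKO values of Foxm1 (46.3 and 10.1 reads) are not whole numbers of reads, nor are those in injured 2 and 3 and uninjured 1 and 2 of FoxM1fl/fl, which limits Foxm1 as a check of the labels. Which exons the reads came from is not in the table, so transcript left over from a floxed allele was not examined.

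The sort defined SCs as negative for CD45, Sca1, CD11b and CD31 and positive for CD34 and integrin alpha 7. The transcripts of the last 2 were scarce. Itga7 was at 0.174, 0 and 3.02 FPKM in injured and 0 in uninjured libraries, and Cd34 at 1.26, 0.579 and 2.06 FPKM in injured and at 0, 0 and 9.6 FPKM in uninjured libraries. Of other SC markers, Cdh15, M-cadherin, stood at 17.3, 1.09 and 0 FPKM after injury against 0 in all uninjured libraries, and Chodl reached 0.765 FPKM in injured 3 alone. Vcam1, an adhesion receptor of SCs, was at 31.5, 62.1 and 27.0 FPKM in injured libraries and at 0 in uninjured ones, at least 10.4-fold higher against a floor of 3 reads per library (adjusted p = 0.0039). The SC identity of the uninjured libraries therefore rests on the label and the sort, with most defining transcripts at 0 at their depth. Calcr was not analysed here.

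Markers of other cells were mixed. Ptprc, which encodes CD45, was at 0.103 FPKM in injured 2 and 0 elsewhere, and Pecam1, which encodes CD31, and Myh11 of smooth muscle were at 0 in all 6 libraries. Of the macrophage list, 10 of 31 genes were tested and 1 was called, Lyz2, at 621, 4.04 and 99.9 FPKM in injured and 0 in uninjured libraries. That list took 0.0902, 0.00482 and 0.0216% of the FPKM sum after injury and 0 without injury, and Lyz2 was lost as a call without FoxM1-cKO uninjured 2 (adjusted p = 0.0634). Markers of fibro-adipogenic progenitors took 0.394, 0.571 and 0.605% after injury against 0.568, 0.855 and 1.26%. Their defining gene Pdgfra rose to 45.4, 196 and 13.6 FPKM, against 0, 0 and 0.614 FPKM, while Ly6a, which encodes Sca1, was at 4.57 FPKM in injured 3 and 0 elsewhere. Of the tendon list 2 of 7 tested genes rose and 1 fell, of the pericyte and smooth muscle list 1 of 5 rose, and of 3 endothelial, 1 neural and 1 erythroid gene tested 0 were called. No neutrophil or lymphocyte marker passed the filter. The part of such cells in the results below was not tested.

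Most genes called after injury in FoxM1-cKO SCs were higher, and most of these were at 0 in every uninjured library. At 48 h, 1158 genes (23.4% of those tested) were higher and 57 (1.15%) lower than in uninjured FoxM1-cKO SCs at an adjusted p under 0.05. The median log2 fold change over all tested genes was 1.68, so a gene rose relative to the others only where it exceeded this value. With genes that were at 0 in every uninjured library set at the bound that 3 reads allow, the median was 0.397. Of the 4956 tested genes 3077 were at 0 in all 3 uninjured libraries and passed the filter only through the others, and 910 of the 1158 higher genes were of this kind. Among the 347 genes above 0 in all 6 FoxM1-cKO libraries 37 were higher and 28 lower. With no filter the median log2 fold change was 0.41. With the 6 FoxM1-cKO libraries alone, 666 genes were higher and 21 lower. For 624 of the 910 higher genes at 0 in every uninjured library, the injured mean was more than 2-fold above the floor of 3 reads. For 257 of the 910 it was more than 10-fold above the floor, whereas for 158 it did not exceed the floor. After quantile normalization, which gives all libraries the same distribution, 100 genes were higher and 67 lower, and all 100 and 45 of the 67 were among the calls above. Median-ratio scaling gave 775 higher and 53 lower. Of all calls 95.3% were higher, against 59.9% after quantile normalization.

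Groups did not overlap for 2219 higher (44.8%) and 70 lower genes (1.41%) of the 4956, among them 1138 of the higher and 42 of the lower calls. Injured libraries differed from each other. Among higher genes above 0 in all 3 injured libraries, the highest of them was a median 6.57-fold above the lowest, and the highest value fell in injured 1, 2 and 3 for 384, 414 and 360 genes. Without FoxM1-cKO uninjured 2 there were 580 higher and 26 lower calls. Without these 3 weighted-sum libraries no gene passed by limma (smallest adjusted p = 0.0726), with 1022 at an unadjusted p under 0.05. Of the 1158 and 57 calls, 947 and 39 had an unadjusted p under 0.05, and all kept their direction. The remaining FoxM1-cKO libraries are the same in both fits, so a kept direction is no separate check.

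The 10 genes that rose furthest among those with at least 20 FPKM in every injured library serve protein synthesis, protein folding, redox balance, the cytoskeleton and cell signalling. Pabpc1, the poly(A)-binding protein of the cytoplasm, stood at 3236, 1235 and 1088 FPKM in injured and at 0 in uninjured libraries, at least 341-fold higher (adjusted p = 0.00146). Cct4, a subunit of the chaperonin that folds actin and tubulin, was at 1709, 907 and 1721 FPKM against 0, at least 227-fold higher (adjusted p = 0.00131). Manf, a secreted factor of the endoplasmic reticulum stress response, was at 716, 1798 and 268 FPKM against 0, at least 132-fold higher (adjusted p = 0.00103). In all 3 genes every injured library lay above every uninjured one, which the rule for choosing these 10 genes required.

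Sod1, the cytosolic superoxide dismutase, was at 213, 236 and 4404 FPKM against 0, at least 396-fold higher (adjusted p = 0.00384). Chchd1, a protein of the mitochondrial ribosome, ranged from 86.6 to 4625 FPKM against 0 (adjusted p = 0.017). Both means rest mainly on 1 injured library. The chemokine Ccl7, which draws monocytes, was at 3272, 4106 and 1237 FPKM in injured and 0, 7.22 and 5.24 FPKM in uninjured libraries (log2 change of 9.42 with SE 1.27, adjusted p = 0.000974). Actg1, cytoplasmic gamma-actin, was at 2692, 2067 and 2293 FPKM against 3.0, 0 and 15.1 FPKM (adjusted p = 0.0119). Crip1, a small LIM domain protein, was at 1568, 249 and 3299 FPKM against 6.48, 0 and 0 FPKM (adjusted p = 0.00225). Ppp1r14b, an inhibitor of protein phosphatase 1, was at 1645, 197 and 323 FPKM against 0, at least 40.9-fold higher (adjusted p = 0.000795).

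Chchd1 and Actg1 ended as calls without FoxM1-cKO uninjured 2 (adjusted p = 0.0531 and 0.0532) and after quantile normalization (0.0838 and 0.0662). Actg1 and ribosomal protein genes have near-identical copies in the mouse genome, and their values are uncertain to the extent that reads were split between copies.

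**Figure D2:**
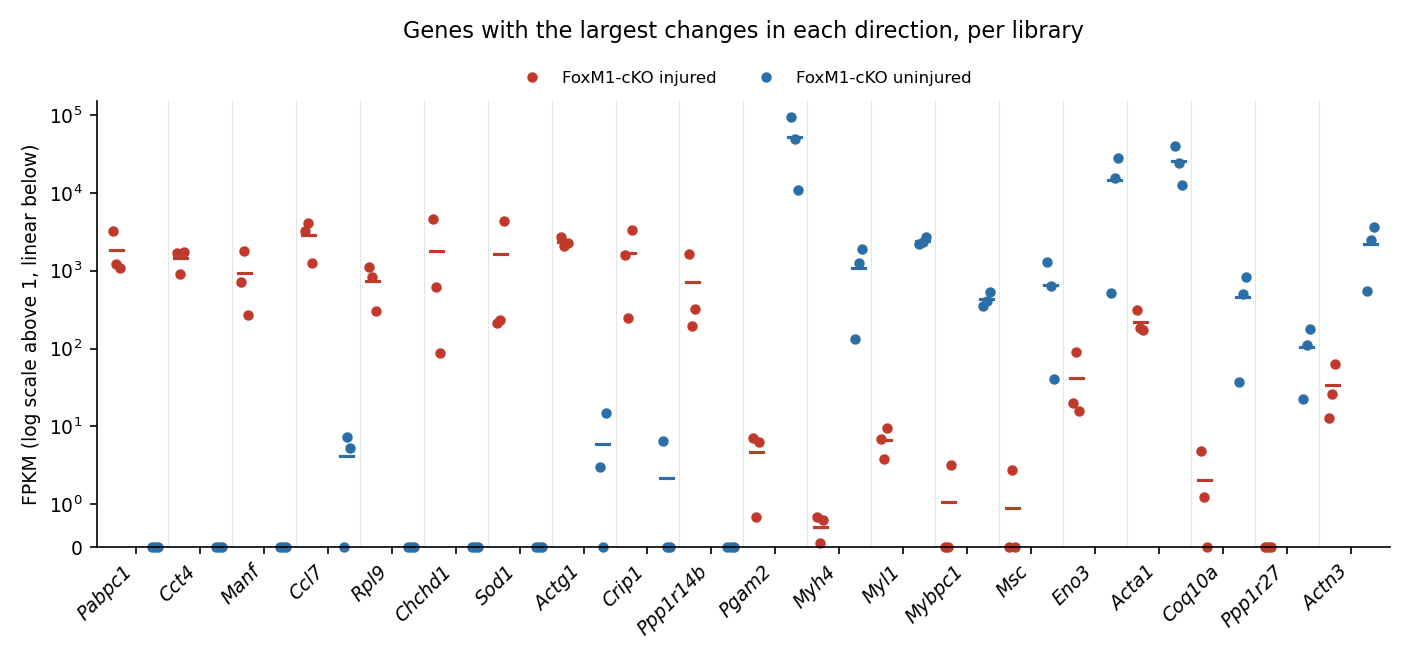
FPKM of the 10 genes that rose and the 10 that fell furthest, 1 point per library with the group mean as a bar, injured FoxM1-cKO in red and uninjured FoxM1-cKO in blue, on an axis that is linear below 1 and logarithmic above. Of the 10 higher genes, 7 were at 0 in all uninjured libraries, and Ppp1r27 alone was at 0 in all injured ones.

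Of the 57 lower genes 13 belonged to the list of sarcomere and mature myofibre, which also holds the muscle enzymes Pgam2 and Eno3 and myoglobin, Mb. Of 30 tested genes of sarcomere and mature myofibre, 13 fell (43.3% beside 1.15% of all genes), 2 rose and 15 did not pass. The median log2 fold change was -3.77, which is 5.44 below that of all genes (4.85 below with genes at their bound). Pgam2 stood at 7.09, 0.703 and 6.35 FPKM in injured and 95161, 49829.8 and 10742 FPKM in uninjured libraries (log2 change of -12.96 with SE 1.68, adjusted p = 0.000795). Myl1 was at 6.80, 3.82 and 9.41 FPKM against 2182, 2331 and 2701 FPKM (log2 change of -8.36 with SE 1.05, adjusted p = 0.000795). Acta1 was at 308, 182 and 171 FPKM against 39962, 24435 and 12497 FPKM, so it remained detectable in every injured library while 116-fold lower in mean (adjusted p = 0.00146).

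Myh4, a fast myosin heavy chain with close copies in its gene cluster, was at 0.699, 0.0982 and 0.645 FPKM after injury against 131, 1243 and 1872 FPKM (adjusted p = 0.00732). Actn3, alpha-actinin of fast fibres, was at 12.7, 26.0 and 63.7 FPKM against 555, 2466 and 3653 FPKM (adjusted p = 0.0118). Mybpc1, a slow myosin-binding protein, was at 0, 0 and 3.21 FPKM against 348, 413 and 538 FPKM (adjusted p = 0.023, or 0.0661 without FoxM1-cKO uninjured 2). Tcap, which caps titin at the Z disc, was at 0 in every injured library against 24.7, 6.10 and 4.43 FPKM, at least 7.81-fold lower (adjusted p = 0.00292). The other called members were Mylpf, Tnni2, Mb, Pvalb, Ldb3 and Eno3. The 2 that rose were the tropomyosins Tpm2 and Tpm3, which non-muscle cells also express.

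The list took 0.214, 0.268 and 0.387% of the FPKM sum in injured and 26.3, 20.2 and 14.2% in uninjured FoxM1-cKO libraries. In FoxM1fl/fl SCs it took 0.149, 0.0826 and 0.295% after injury against 2.63, 1.86 and 7.02%. The uninjured FoxM1-cKO libraries thus held more myofibre transcript than any other group, and since these transcripts belong to the mature fibre, RNA of myofibres carried along in the sort and expression in the sorted cells cannot be told apart. Fewer cells of a type and less RNA per cell cannot be told apart in bulk samples. The fall held after quantile normalization (14 lower), with median-ratio scaling (14) and without FoxM1-cKO uninjured 2 (11). In the test of the difference between genotypes 0 of the 30 passed, beside 1.09% of all genes. Few genes passed that test, so this count does not show an equal fall. The median log2 fold change of the list was -3.77 in FoxM1-cKO and -2.67 in FoxM1fl/fl SCs.

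**Figure D3:**
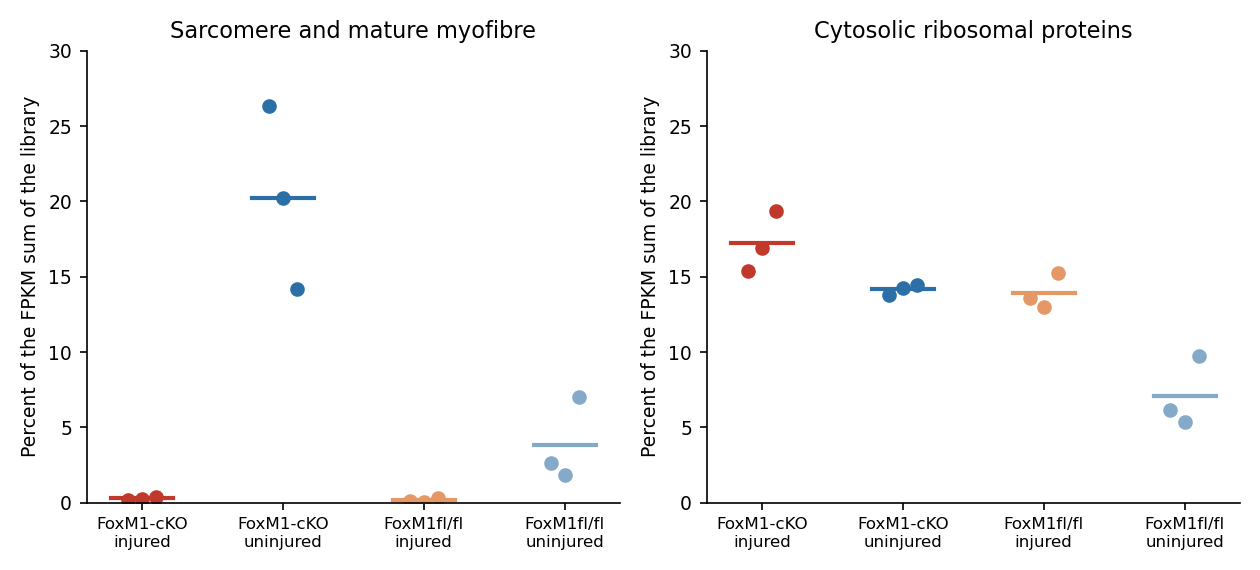
Percent of the FPKM sum of each library taken by 41 sarcomere and myofibre genes (left) and by 83 cytosolic ribosomal protein genes (right), 1 point per library and the group mean as a bar. Myofibre genes took 0.214 to 0.387% in injured and 14.2 to 26.3% in uninjured FoxM1-cKO libraries, while the ribosomal share lay at 15.4 to 19.3% and 13.8 to 14.5%.

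Of 16 tested genes of glycolysis 3 rose, 4 fell and 9 did not pass (3 rose and 3 fell without FoxM1-cKO uninjured 2). The muscle enolase Eno3 was at 19.9, 91.4 and 15.8 FPKM in injured libraries against 521, 15606 and 27927 FPKM (adjusted p = 0.00737), whereas the ubiquitous enolase Eno1 was at 49.4, 43.4 and 54.5 FPKM against 0, at least 6.29-fold higher (adjusted p = 0.00146). Likewise Pgam2 fell, and Pgam1, the form found in most other tissues, was at 13.2, 14.5 and 11.4 FPKM against 0, at least 1.51-fold higher (adjusted p = 0.00732). The remaining calls were Slc2a1, a glucose transporter, which rose, and Pfkm and Ldhb, which fell.

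Of the 10 genes that fell furthest, 3 do not belong to the lists of contractile or glycolytic genes. Ppp1r27, a regulatory subunit of protein phosphatase 1, was at 0 in injured libraries against 22.8, 113 and 179.7 FPKM, at least 56.8-fold lower (adjusted p = 0.00118). Coq10a, a coenzyme Q-binding protein, was at 4.89, 1.24 and 0 FPKM against 36.8, 508 and 837 FPKM (adjusted p = 0.0103). Msc, musculin, a bHLH repressor expressed in the myogenic lineage, was at 0, 2.71 and 0 FPKM against 1302, 641 and 41.0 FPKM (adjusted p = 0.0181). In none of the 3 did the groups overlap, which the rule for choosing these genes required. Msc was lost as a call without FoxM1-cKO uninjured 2 (adjusted p = 0.0667).

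Genes of protein synthesis were among the rises. Of 83 cytosolic ribosomal protein genes, all tested, 32 rose (38.6% beside 23.4% of all genes), 0 fell and 51 did not pass. The rises numbered 22 without FoxM1-cKO uninjured 2 and 7 after quantile normalization. The median log2 fold change was 3.17, or 1.49 above that of all genes. This excess depended on the genes compared. Among genes whose higher group mean was worth 10 reads in the shallowest FoxM1-cKO library, 35 of 79 rose, beside 799 of 1848 of all such genes. The median of the list was there 0.052 above that of all such genes. Rpl9 was at 1106, 826 and 308 FPKM in injured and 0 in uninjured libraries, at least 127-fold higher (adjusted p = 0.000795). Rpl29 was at 307, 471 and 161 FPKM against 0, at least 16.7-fold higher (adjusted p = 0.000795). Rpl39 was at 54.4, 70.5 and 53.1 FPKM against 0, at least 2.29-fold higher (adjusted p = 0.00146). As a share of the FPKM sum the whole family stood at 15.4, 16.9 and 19.3% in injured and 13.8, 14.3 and 14.5% in uninjured libraries, with no overlap. Of its 83 genes, 82 were above 0 in each injured library and 58, 68 and 64 in the uninjured ones.

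Translation factors followed, with 19 of 45 higher (42.2% beside 23.4% of all genes) and 0 lower. Their median log2 fold change was 3.33, or 1.65 above all genes, and 9 were higher without FoxM1-cKO uninjured 2. Eif3a, the largest subunit of the initiation factor eIF3, was at 22.6, 21.2 and 17.3 FPKM against 0, at least 6.66-fold higher (adjusted p = 0.00249). Eif3d was at 42.2, 418 and 35.3 FPKM against 0, at least 25-fold higher (adjusted p = 0.00154). Eif6, which keeps the large ribosomal subunit free until it matures, was at 17.3, 249 and 16.5 FPKM against 0 (adjusted p = 0.00317). For Eif3d and Eif6 the second injured library lay far above the other 2.

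Of 39 genes of ribosome biogenesis and the RNA exosome 10 rose (9 without FoxM1-cKO uninjured 2). Npm1, nucleophosmin of the nucleolus, was at 82.8, 77.0 and 30.6 FPKM against 0, at least 6.54-fold higher (adjusted p = 0.00146). Ddx21, a nucleolar RNA helicase, was at 122, 77.3 and 115 FPKM against 0, at least 31.2-fold higher (adjusted p = 0.00292). Nhp2, a protein of box H/ACA ribonucleoproteins, was at 173, 574 and 29.3 FPKM against 0 (adjusted p = 0.00146). The share of 25.6% of this list that rose is close to the 23.4% of all genes.

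In mitochondria, 14 of 49 mitochondrial ribosomal proteins and 23 of 72 nuclear genes of oxidative phosphorylation rose and 0 fell (13 and 13 without FoxM1-cKO uninjured 2), which is 28.6% and 31.9% beside 23.4% of all genes. The median log2 fold change was 0.29 and 0.82 above that of all genes, and for the mitochondrial ribosome -0.099 relative to all genes with genes at their bound. Mrpl3 was at 553, 701 and 221 FPKM against 0, at least 123-fold higher (adjusted p = 0.000795). Uqcrc2, a core protein of complex III, was at 70.2, 21.2 and 76.5 FPKM against 0, at least 6.70-fold higher (adjusted p = 0.00146). Ndufs5 of complex I was at 131, 224 and 65.6 FPKM and Cox7b of complex IV at 89.9, 217 and 49.4 FPKM, both against 0 (adjusted p = 0.00129 and 0.00178). The 3 complexes had each of their named genes at 0 in every uninjured library.

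Genes of protein turnover and folding were also among the rises. Of 38 proteasome genes 17 rose (44.7% beside 23.4% of all genes) and 0 fell, with 10 higher without FoxM1-cKO uninjured 2. Their median log2 fold change was 2.96, or 1.28 above all genes. Psma1, a subunit of the outer ring, was at 373, 131 and 127 FPKM against 0, at least 16.0-fold higher (adjusted p = 0.000795). Psmb4, a subunit of the inner ring, was at 205, 693 and 397 FPKM against 0, at least 32.2-fold higher (adjusted p = 0.00111). Of 51 chaperone genes 16 rose (31.4% beside 23.4% of all genes, and 9 without FoxM1-cKO uninjured 2), with a median 0.23 above that of all genes. P4hb, protein disulphide isomerase, was at 1257, 514 and 2152 FPKM in injured and 6.14, 2.02 and 0 FPKM in uninjured libraries (log2 change of 8.65 with SE 1.09, adjusted p = 0.000795). Pdia6, of the same family, was at 433, 983 and 982 FPKM against 18.9, 0 and 0 FPKM (adjusted p = 0.00154).

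Among splicing factors and hnRNPs 24 of 62 rose (38.7% beside 23.4% of all genes), against 14 without FoxM1-cKO uninjured 2 and 2 after quantile normalization. Hnrnpc, which packages nascent transcripts, was at 363, 196 and 160.0 FPKM against 0, at least 43.1-fold higher (adjusted p = 0.00306), and Snrpg, a core protein of spliceosomal snRNPs, was at 89.7, 523 and 43.7 FPKM against 0 (adjusted p = 0.0017). In the serine, glycine and ATF4 list 8 of 18 rose, or 44.4% beside 23.4% of all genes (4 without FoxM1-cKO uninjured 2). Psat1, an enzyme of serine synthesis, was at 21.8, 26.4 and 47.4 FPKM against 0, at least 5.27-fold higher (adjusted p = 0.00142). Gars, glycyl-tRNA synthetase, was at 322, 83.4 and 108 FPKM against 0, at least 25.7-fold higher (adjusted p = 0.00146).

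**Figure D4:**
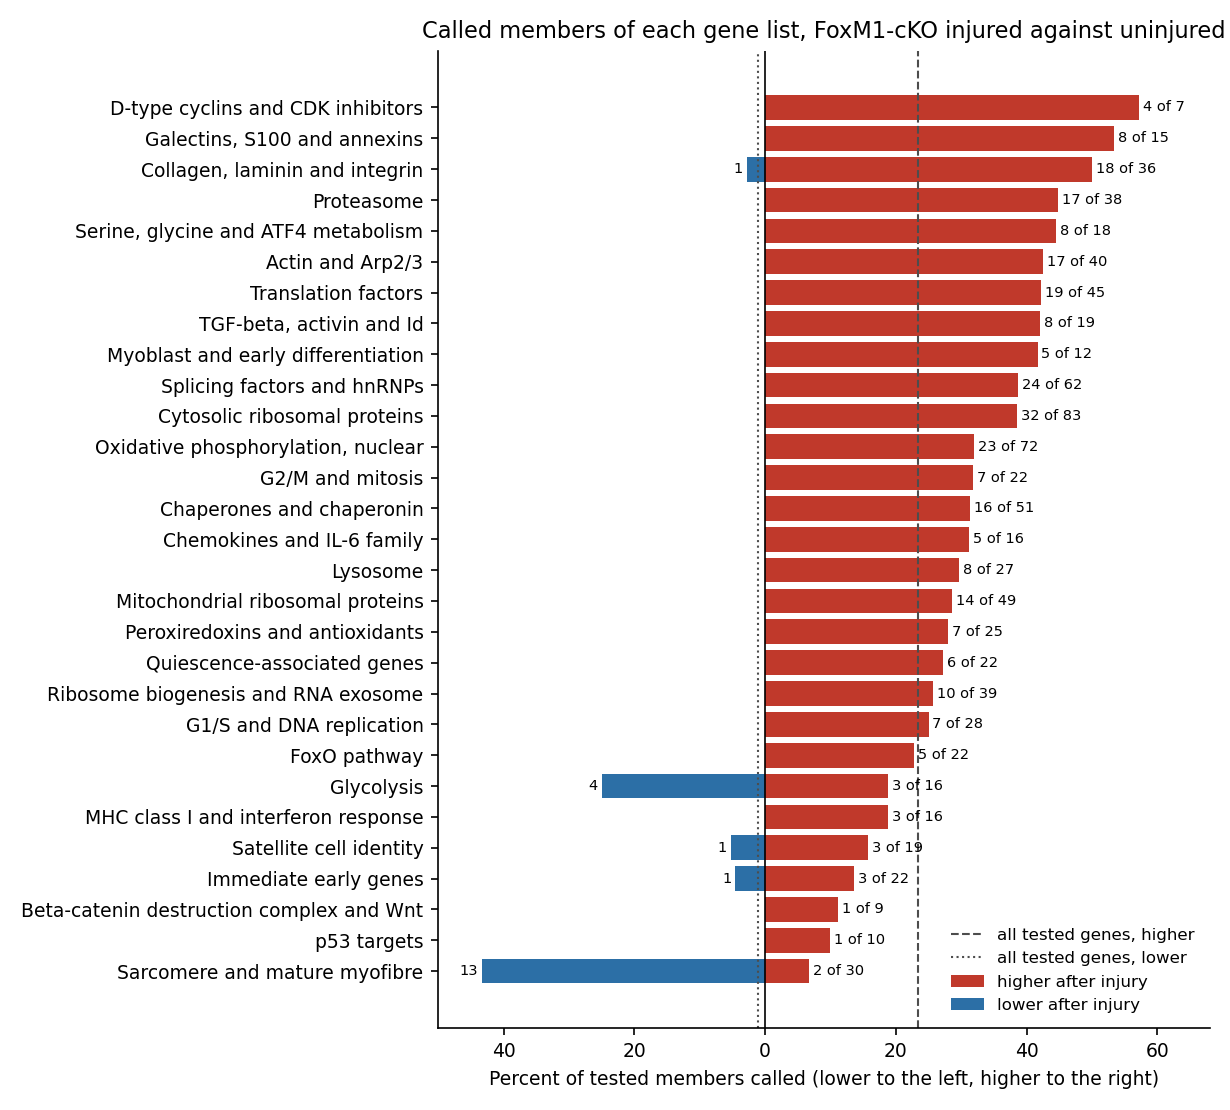
Percent of the tested members of each of 29 gene lists that were called higher (red, right) and lower (blue, left) in injured against uninjured FoxM1-cKO SCs, with the counts beside the bars and the percent of all tested genes as a dashed (23.4%, higher) and a dotted line (1.15%, lower). Sarcomere and mature myofibre had 13 of 30 lower, and glycolysis 4 of 16.

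Cell cycle genes were mostly at 0 in the uninjured libraries at their depth. Of 22 tested genes of G2/M and mitosis 20 were at 0 in all 3 of them. After injury 7 rose, 0 fell and 15 did not pass (3 rose without FoxM1-cKO uninjured 2, 1 after quantile normalization). The rises were a share of 31.8% beside 23.4% of all genes. The median log2 fold change was 2.30, or 0.62 above all genes. Tacc3, which stabilises spindle microtubules, was at 30.2, 96.2 and 58.7 FPKM in injured libraries against 0, at least 11.3-fold higher (adjusted p = 0.00087). Cdc20 was at 35.0, 27.3 and 9.20 FPKM against 0, at least 2.70-fold higher (adjusted p = 0.0039). Aurka, the Aurora A kinase, was at 17.7, 94.6 and 1.53 FPKM against 0 (adjusted p = 0.0126), and Ccna2, cyclin A2, at 3.19, 30.9 and 2.29 FPKM against 0 (adjusted p = 0.0145, or 0.0556 without FoxM1-cKO uninjured 2). For Aurka and Ccna2 injured 2 stood apart, and it also held the highest share of FPKM for this list, 0.0970% of the FPKM sum, against 0.0447% in injured 1 and 0.0349% in injured 3.

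Ccnb1 stood at 10.3, 1.42 and 0.779 FPKM after injury against 0 in uninjured libraries and did not pass (adjusted p = 0.194). Its partner Cdk1, the mitotic kinase, was at 2.00, 8.10 and 76.9 FPKM against 0 (adjusted p = 0.164). In FoxM1fl/fl SCs Ccnb1 was at 280, 425 and 130.3 FPKM after injury against 6.02, 6.88 and 5.67 FPKM. The difference of the 2 injury responses did not pass for Ccnb1 (adjusted p = 0.217) or Cdk1 (0.716). 2 values of Ccnb1 in FoxM1fl/fl libraries are not whole numbers of reads at its transcript length. Ccnb2 was at 0.686, 0.772 and 7.29 FPKM in injured FoxM1-cKO libraries, against 0, and was not tested.

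Of 28 genes of G1/S and DNA replication 7 rose, or 25% beside 23.4% of all genes (4 without FoxM1-cKO uninjured 2, 0 after quantile normalization). Rfc4, a subunit of the clamp loader, was at 37.3, 8.77 and 9.48 FPKM against 0, at least 1.49-fold higher (adjusted p = 0.00262). Tipin, of the replication fork protection complex, was at 4.57, 45.2 and 8.17 FPKM against 0 (adjusted p = 0.0039). Dut, which removes dUTP, was at 188, 8.18 and 688 FPKM against 0 (adjusted p = 0.00587), and Mcm7, a subunit of the replicative helicase, at 36.3, 192 and 7066 FPKM against 0 (adjusted p = 0.0105). For Mcm7 a single injured library set nearly the whole mean.

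Cyclins of G1 and inhibitors of their kinases were both among 4 of 7 genes that rose (2 without FoxM1-cKO uninjured 2). The share was 57.1% beside 23.4% of all genes. Cdk4, the G1 kinase, was at 20.8, 194 and 61.7 FPKM against 0, at least 11.9-fold higher (adjusted p = 0.00199), and Ccnd2, cyclin D2, at 37.6, 14.1 and 37.5 FPKM against 0, at least 11.9-fold higher (adjusted p = 0.00606). Cdkn1c, the inhibitor p57, was at 109, 2.49 and 4.85 FPKM against 0 (adjusted p = 0.0183), and Cdkn1a, the inhibitor p21, at 36.7, 1.55 and 5.08 FPKM against 0 (adjusted p = 0.0488). Both inhibitors ended as calls without FoxM1-cKO uninjured 2 (adjusted p = 0.0624 and 0.129). Ccnd3 and Ccng2 reached 96.5 and 15.4 FPKM in an injured library but were not tested. Of 10 tested p53 targets only Cdkn1a was called, and Gadd45a was at 10.6, 0.483 and 3.97 FPKM in injured against 67.1, 52.0 and 0 FPKM in uninjured libraries (adjusted p = 0.393).

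Among 22 immediate early genes, which respond within minutes to stimuli and to tissue dissociation, 3 rose, 1 fell and 18 did not pass. The rises were 13.6% of the list beside 23.4% of all genes, and its median was 0.94 below that of all genes. Its share of the FPKM sum was lower after injury, at 0.0556, 0.125 and 0.156% against 1.15, 0.958 and 0.754%, without overlap. Most of the uninjured share came from Klf6, Nr4a3 and Ier2, with uninjured means of 3265, 1844 and 882 FPKM. Of these only Ier2 was called, so the lower share does not describe the list as a whole. Quantile normalization gave 0 higher and 2 lower, and without FoxM1-cKO uninjured 2 there were 0 of each. Ier2 was at 6.67, 4.27 and 8.60 FPKM in injured libraries against 1863, 749 and 35.9 FPKM (log2 change of -5.67 with SE 1.64, adjusted p = 0.0244). Klf4 was at 7.4, 7.22 and 33.5 FPKM against 0, 0 and 1.39 FPKM (adjusted p = 0.00925). Both calls were lost without FoxM1-cKO uninjured 2 (adjusted p = 0.0905 for Ier2 and 0.0531 for Klf4).

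Genes of the myogenic lineage gave few calls. Of 19 genes of SC identity 3 rose (Vcam1, Itgb1 and Emd) and 1 fell (Msc), with 1 higher and 0 lower without FoxM1-cKO uninjured 2. The rises were 15.8% of the list beside 23.4% of all genes, and its median was 0.52 below that of all genes. Itgb1, the beta 1 integrin, was at 148, 197 and 60.8 FPKM in injured libraries against 3.07, 0 and 0 FPKM (adjusted p = 0.0268, or 0.09 without FoxM1-cKO uninjured 2). Des, desmin, was at 6.71, 8.39 and 15.9 FPKM against 7.74, 28.7 and 91.5 FPKM and did not pass (adjusted p = 0.392). Of 22 genes linked to quiescence 6 rose and 0 fell, or 27.3% beside 23.4% of all genes (2 without FoxM1-cKO uninjured 2), and their median was 0.41 below that of all genes. Among them were the collagens Col5a1, at 438, 112 and 137 FPKM against 0, 0.688 and 2.00 FPKM (adjusted p = 0.00249), and Col15a1, at 60.3, 185 and 4.41 FPKM against 0, 0 and 3.25 FPKM (adjusted p = 0.0137, or 0.0632 without FoxM1-cKO uninjured 2). The members that moved are mostly matrix genes, which many cell types make.

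Of 12 genes of myoblasts and early differentiation 5 rose and 0 fell (3 rose without FoxM1-cKO uninjured 2). The rises were 41.7% of the list beside 23.4% of all genes. Chrna1, the alpha subunit of the muscle acetylcholine receptor, was at 1410.4, 99.4 and 520.2 FPKM against 0, at least 187-fold higher (adjusted p = 0.000914). Myh3, the embryonic myosin heavy chain, was at 37.4, 2.35 and 229.7 FPKM against 0, at least 34.2-fold higher (adjusted p = 0.0101). H19, an imprinted long noncoding RNA of developing and regenerating muscle, was at 312, 99.7 and 12.1 FPKM against 0, 0 and 3.67 FPKM (adjusted p = 0.0153, or 0.0639 without FoxM1-cKO uninjured 2). Of these 3 genes, Chrna1 kept its call without FoxM1-cKO uninjured 2 (adjusted p = 0.00655) and after quantile normalization (0.00937).

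The TGF-beta list, whose ligands act on SCs, had 8 of 19 genes higher and 0 lower (5 higher without FoxM1-cKO uninjured 2). The higher genes were 42.1% of the list beside 23.4% of all genes. Tgfb2 was at 313, 197 and 132 FPKM in injured libraries against 0, 0 and 0.821 FPKM (log2 change of 7.37 with SE 1.11, adjusted p = 0.00146). Tgfb3 was at 20.4, 12.1 and 16.2 FPKM against 0, at least 3.46-fold higher (adjusted p = 0.00308), although 2 of its 3 injured values are not whole numbers of reads. Inhba, a subunit of activin, was at 133, 60.3 and 27.7 FPKM against 0, at least 29.6-fold higher (adjusted p = 0.00146). Its antagonist Fst, follistatin, was at 18.4, 13.8 and 2.23 FPKM against 0, at least 2.04-fold higher (adjusted p = 0.00402).

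Genes of the beta-catenin destruction complex and Wnt signalling gave 1 call among 9 tested, Tcf7l2, a partner of beta-catenin on DNA, at 4.50, 18.6 and 104 FPKM against 0, at least 11-fold higher (adjusted p = 0.00517). Ctnnb1, beta-catenin, was at 3.00, 20.7 and 0.535 FPKM against 0 (adjusted p = 0.134). Gsk3b, a kinase of the complex, was at 42.4, 4.2 and 16.3 FPKM in injured libraries against 249, 118 and 0 FPKM (adjusted p = 0.741), and Skp1a, an adaptor of the ubiquitin ligase, at 119, 39.7 and 299 FPKM against 0, 3.30 and 2.39 FPKM (adjusted p = 0.125). Axin1, the scaffold, was at 0 in all 6 libraries. The groups overlapped for Gsk3b and not for the other 2. Of 22 genes of the FoxO pathway 5 rose, including Akt1, at 215, 14.9 and 7.03 FPKM against 0 (adjusted p = 0.0186, or 0.0622 without FoxM1-cKO uninjured 2), a share of 22.7% beside 23.4% for all genes (3 genes without FoxM1-cKO uninjured 2).

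Matrix genes and their receptors came next. Of 36 genes of collagen, laminin and integrin 18 rose (50.0% beside 23.4% of all genes) and 1 fell. The median log2 fold change was 2.86, or 1.18 above all genes. There were 8 higher and 0 lower without FoxM1-cKO uninjured 2, and 1 higher and 2 lower after quantile normalization. The list's share of the FPKM sum was nevertheless lower after injury, at 0.792, 1.29 and 1.21% against 1.35, 1.63 and 2.03%, without overlap. Col6a3, of the microfibrillar collagen VI, was at 57.8, 185 and 218 FPKM in injured libraries against 0, at least 98.1-fold higher (adjusted p = 0.000795). Postn, periostin, was at 127, 349.9 and 312 FPKM against 6.73, 4.43 and 8.04 FPKM (log2 change of 5.06 with SE 1.05, adjusted p = 0.00541). Tnc, tenascin-C of the regenerating niche, was at 584, 1018 and 734 FPKM against 6.60, 3.26 and 7.09 FPKM (log2 change of 6.89 with SE 1.6, adjusted p = 0.00893). Postn and Tnc were detected in all 6 libraries and did not overlap between groups. The gene that fell was Dcn, the proteoglycan decorin, also a marker of fibro-adipogenic progenitors, of whose 19 tested markers 5 rose and 2 fell. Fbln1, fibulin 1, the other that fell, was at 0.670, 0.161 and 3.58 FPKM in injured libraries against 83.3, 33.2 and 39.0 FPKM (adjusted p = 0.0042).

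The cytoskeleton list had 17 of 40 higher, or 42.5% beside 23.4% of all genes, and 0 lower (9 higher without FoxM1-cKO uninjured 2). Arpc3, of the Arp2/3 complex that branches actin filaments, was at 291, 297 and 203 FPKM against 0, at least 15.0-fold higher (adjusted p = 0.000795). Actr3, of the same complex, was at 102, 109 and 242 FPKM against 0, at least 24.5-fold higher (adjusted p = 0.00103). Vim, vimentin, was detected in all 6 libraries, at 3300.2, 4618 and 4014 FPKM against 168, 140.3 and 99.0 FPKM, 29.3-fold higher in mean (log2 change of 4.88 with SE 0.82, adjusted p = 0.00188). The 3 injured values of Vim lay close together, and the call held without FoxM1-cKO uninjured 2 (adjusted p = 0.0116) and after quantile normalization (0.00996).

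Of 15 galectins, S100 proteins and annexins 8 rose (53.3% beside 23.4% of all genes) and 0 fell, with 7 higher without FoxM1-cKO uninjured 2. Their median log2 fold change was 4.18, or 2.50 above all genes. The list's share of the FPKM sum did not rise with it, at 0.819, 0.815 and 0.764% in injured libraries. In uninjured 1, 2 and 3 the share was 0.101, 0.856 and 1.75%, so the groups overlapped. Anxa1, annexin A1, which binds membranes in a calcium-dependent way, was at 209, 641 and 79.7 FPKM against 0, at least 32.8-fold higher (adjusted p = 0.00087). S100a4, a calcium-binding protein, was at 168, 618 and 57.5 FPKM against 0, at least 8.84-fold higher (adjusted p = 0.00118). Lgals3, galectin 3, was at 124, 32.5 and 1252 FPKM against 0, at least 42.1-fold higher (adjusted p = 0.00308).

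Of 16 chemokines and genes of the IL-6 family 5 rose, or 31.25% beside 23.4% of all genes (3 without FoxM1-cKO uninjured 2). Il6 was at 100.5, 78.2 and 2.69 FPKM against 0, at least 8.94-fold higher (adjusted p = 0.00768), and Spp1, osteopontin, at 46.3, 12.5 and 12.2 FPKM against 0, at least 2.25-fold higher (adjusted p = 0.00567). Cxcl12 was at 2.55, 20.5 and 8.36 FPKM against 0 (adjusted p = 0.0197, or 0.0728 without FoxM1-cKO uninjured 2). Of 16 genes of MHC class I and the interferon response 3 rose (18.8% beside 23.4% of all genes), with Ifitm3, an antiviral membrane protein, at 2784, 1024 and 5090.0 FPKM in injured libraries against 0, 76.8 and 92.9 FPKM (log2 change of 6.97 with SE 1.62, adjusted p = 0.00898). Macrophage markers were above 0 only after injury, as given above, and their part in these rises was not tested.

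Of 27 lysosomal genes 8 rose and of 25 antioxidant genes 7, or 29.6% and 28.0% beside 23.4% of all genes. The counts were 4 and 5 without FoxM1-cKO uninjured 2, and 0 and 4 after quantile normalization. Ctsb, cathepsin B, was at 27.6, 52.4 and 44.5 FPKM against 0, at least 12.4-fold higher (adjusted p = 0.0015). Prdx1, peroxiredoxin 1, was at 913, 4597 and 2695 FPKM in injured and 0, 55.5 and 64.1 FPKM in uninjured libraries (log2 change of 7.19 with SE 1.47, adjusted p = 0.00499). Gpx4, which reduces lipid peroxides, was at 729.9, 2059 and 67.3 FPKM against 0, at least 59.8-fold higher (adjusted p = 0.00146), and Txn1, thioredoxin, at 1379, 151 and 111 FPKM against 0, at least 36.3-fold higher (adjusted p = 0.00148).

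The response in FoxM1-cKO SCs was then set against that in FoxM1fl/fl SCs, with which it shares no library. In FoxM1fl/fl SCs 934 genes rose (18.8%) and 95 fell (1.92%). The difference of the 2 responses passed for 54 genes (1.09% of 4956, 1076 at an unadjusted p under 0.05), 30 with the higher value in FoxM1-cKO and 24 with the lower. Of the 54, 25 rose and 6 fell with injury in FoxM1-cKO SCs and 23 did not change by the test. No gene passed without the 3 weighted-sum libraries, without FoxM1-cKO uninjured 2 or after quantile normalization.

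Among the genes followed here 8 passed this test. Arpc3 rose in FoxM1-cKO SCs as given, whereas in FoxM1fl/fl SCs it was at 0.868, 0 and 0 FPKM after injury against 0 (log2 difference of the responses 7.73, SE 1.17, adjusted p = 0.0369). Mthfd2, a mitochondrial enzyme of folate metabolism, was at 67.9, 260.3 and 184 FPKM in injured and 0 in uninjured FoxM1-cKO libraries, and at 1.5, 0.747 and 1.59 FPKM in injured and 0 in uninjured FoxM1fl/fl libraries (difference 6.06, adjusted p = 0.0422). Tacc3 and Psmc2, an ATPase of the proteasome, were at 0 in all 6 FoxM1fl/fl libraries, as were Mrps21 and Ppp1r27. For these genes a single group was above 0. Their own spread comes from that group alone, and the SE of the difference may be too small. Mrps17 was at 72.4, 33.5 and 26.6 FPKM after injury against 0 in FoxM1-cKO SCs, and at 0.154, 0.154 and 0 FPKM against 2.30, 0.308 and 0 FPKM in FoxM1fl/fl SCs (difference 5.93, adjusted p = 0.0422). Msc fell in FoxM1-cKO SCs and was at 402, 563 and 0 FPKM after injury against 0 in FoxM1fl/fl SCs (difference -13.66, adjusted p = 0.0432). In 6 of the 8 the FoxM1-cKO response was the higher one.

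**Figure D5:**
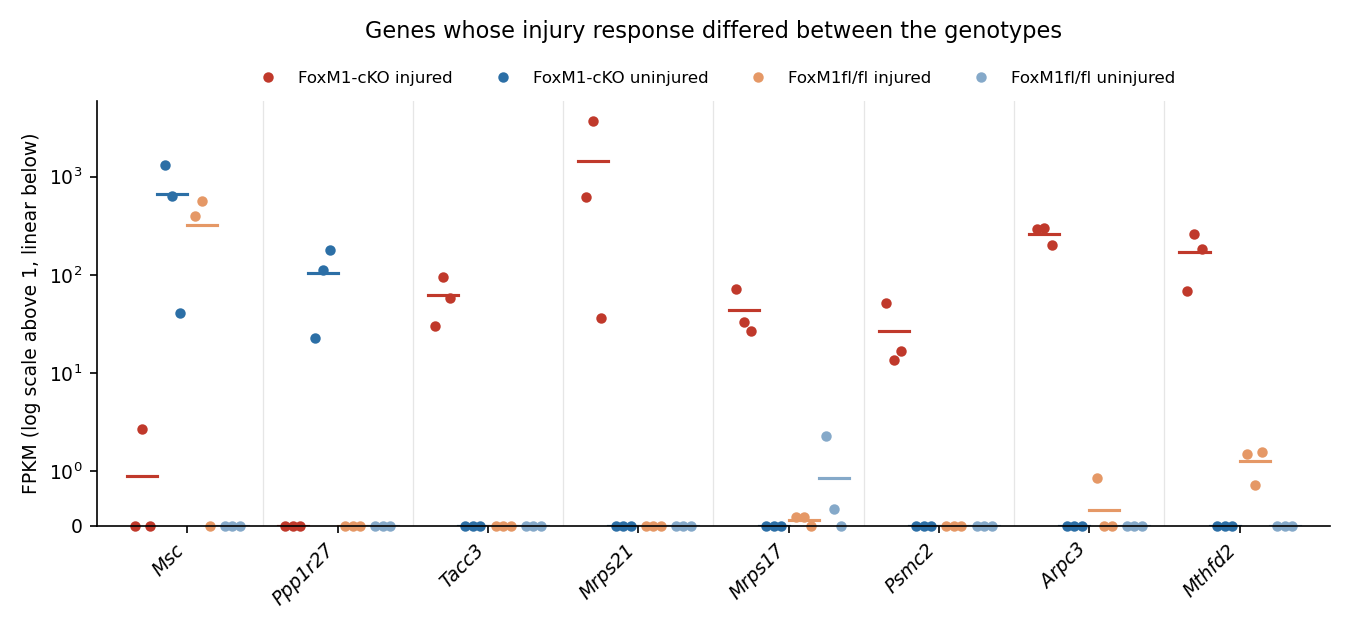
FPKM of the 8 genes whose injury response differed between genotypes, 1 point per library with the group mean as a bar, in injured and uninjured FoxM1-cKO and injured and uninjured FoxM1fl/fl libraries from left to right, on an axis that is linear below 1 and logarithmic above. Tacc3, Mrps21, Psmc2 and Ppp1r27 lie at 0 in all 6 FoxM1fl/fl libraries.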

How the data were processed

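RNA was measured in 12 libraries of sorted SCs, and the 6 FoxM1-cKO libraries were compared. The submitters' processing notes name the build mm10 and the tools Bowtie 0.12.9, Cufflinks 2.1.1 and HTSeq. The deposited values are the authors' FPKM (fragments per kilobase of transcript, scaled to library depth). For 94.7% of 6386 genes with low values, FPKM were whole multiples of a single read at the longest GENCODE M21 transcript, within 0.02 reads or 0.1%, which gave the depth of each library.

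The tested genes were the 4956 that reached 1 FPKM in 3 or more of the 12 libraries. On log2(FPKM + 1), a scale that understates the change of low genes, limma 3.58.1 (R 4.3.3) estimated 4 group means with a mean-variance trend, and tests were two-sided. Benjamini-Hochberg adjustment ran over the whole set of tested genes, with 0.05 as the threshold for a call. Adjusted p-values come from this limma fit unless another setting is named. The procedure was tested on simulated data. Where a group was at 0, a fold is a lower bound against 3 reads per library, averaged over that group. Bounds cover counting error only, since PCR reads without molecular identifiers are not independent molecules. Use of strand in counting is not given in the sources used here, so overlapping and antisense genes cannot be told apart.

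The members and the 38 gene lists (29 of processes, 9 of other cell types) were chosen with earlier results of these data known. Genes given with values were drawn from those the study names for SCs, the 10 largest called changes each way without overlap of groups and with at least 20 FPKM in each library of the higher group, the 4 members of each list with the smallest p among those averaging 5 FPKM or more in the higher group, and defining markers. Not every gene that meets this rule is printed, and a few called members are named without values. 1 gene of the Wnt list is not reported here. Pax7, Myf5, Adgre1, S100a8, Cd3e and Cdh5 were not analysed here. Alternatives were pseudocounts of 0.1 and 5, other filters and scalings, thinned reads, the 6 libraries alone, a block on replicate number, no trend, array weights, libraries left out, and voom on the recovered reads, which was chosen after seeing the data. Promoters came from RefSeq (GRCm38.p6). Python 3.11.15, numpy 2.4.6, pandas 2.3.3 and matplotlib 3.10.9 made the tables and figures.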

Additional observations from a re-analysis of the deposited data

Results flagged for a closer look

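For 8 of the genes described, the injury response of FoxM1-cKO SCs differed from that of FoxM1fl/fl SCs by the test of the difference itself (limma, adjusted over 4956 genes). On the log2 scale, FoxM1-cKO minus FoxM1fl/fl, the differences were 7.73 (SE 1.17) for Arpc3, 6.06 (SE 1.23) for Mthfd2, 5.93 (SE 1.17) for Mrps17, 5.82 (SE 1.08) for Tacc3, 8.80 (SE 1.89) for Mrps21, 4.57 (SE 0.98) for Psmc2, -6.30 (SE 1.26) for Ppp1r27 and -13.66 (SE 2.94) for Msc, with adjusted p from 0.0369 to 0.0432. In each of the 6 with a positive difference, all 3 injured FoxM1-cKO libraries were above 0 and all 3 uninjured ones at 0. For Tacc3, Mrps21, Psmc2 and Ppp1r27 a single group was above 0, so the SE and adjusted p of these genes may be too small. None of the 8 passed without the 3 weighted-sum libraries.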

How the results depend on the processing

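Counts are given as genes higher, genes lower and genes whose response differed between genotypes, against 1158, 57 and 54. With pseudocount 0.1 308 genes differed between genotypes, and with pseudocount 5 there were 696 higher and 0 that differed. No filter gave 578 higher, 23 lower and 0 that differed, the stricter filter 182 that differed and the filter on the FoxM1-cKO libraries 226. Among the 347 genes above 0 in all 6 FoxM1-cKO libraries, 37 were higher and 28 lower. Quantile normalization gave 100 higher and 0 that differed, the 6 libraries alone 666 higher and 21 lower, no trend 146 that differed and array weights 2019. Without the 3 weighted-sum libraries all 3 counts were 0. By voom on the reads, chosen after seeing the data, 724 were higher, 269 lower and 295 differed. With a library left out, 580 to 1308 were higher, 26 to 147 lower and 0 to 438 differed. The lowest counts of higher and lower genes came without FoxM1-cKO uninjured 2, and 147 and 129 were lower without uninjured 1 and 3. Median-ratio scaling gave 775, 53 and 63.

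With the replicate number as a block 1083 were higher, 56 lower and 0 differed. Deviations of FoxM1-cKO libraries with the same number correlated at 0.016, 0.024 and -0.0071, so the numbers were not taken as pairs.

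Of the 123 called genes that met the rule for naming, not all of them printed, 0 changed direction in 29 alternatives. The alternatives use the same libraries or a part of them, so a kept direction is no separate check. Quantile normalization ended 66 of these calls and leaving out FoxM1-cKO uninjured 2 ended 20. The log2 fold change turned sign for 6 genes that had not passed. It was 0.010 for Gsk3b with pseudocount 0.1 and -3.45 to 0.53 with a library left out. By voom it was -1.21 for Gadd45g, -0.60 for Laptm5, -1.33 for C1qb, -2.02 for Ly6a and -0.53 for Cd34. Quantile normalization gave -0.17 for Ly6a and -1.50 for Cd34. Cd34 also had -0.19 with pseudocount 5, -0.30 with median-ratio scaling, -0.55 without the weighted-sum libraries and -0.55 to 1.15 with a library left out. The causes were not tested. Depth is a limit of the uninjured FoxM1-cKO libraries, where 3077 of the tested genes were at 0 in all 3.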
